A study of Mus musculus with 6 samples.

Results

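Kinesins are ATP-driven motor proteins that move along microtubules or take them apart. Mitotic kinesins build the spindle, align the chromosomes and help to divide the cell, and their transcripts are known to build up in dividing cells as they approach mitosis. Transport kinesins carry vesicles, organelles and RNA, and many are made whether or not a cell divides. In T cells, kinesins also take part in the movement of granules and of the microtubule organising centre towards a target cell.

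The kinesin motor family was taken here as every probe that is not an array control and whose gene name begins with Kif and a digit. This gave 80 of 41174 probes, and the 80 probes stood for 36 of 27343 distinct gene names. By known role, 12 of the 36 genes were listed as mitotic kinesins, 13 as transport kinesins and 11 as other kinesins (ciliary, atypical or of several roles). A probe was used where the scanner software called it well above background on 3 or more of the 6 arrays, and each gene was read by its brightest such probe. This left 54 probes and 28 genes, namely 11 mitotic, 10 transport and 7 other kinesins. The 8 genes without a usable probe were the mitotic Kif2b, the transport kinesins Kif1a, Kif13a and Kif17, and Kif6, Kif9, Kif21a and Kif27. Their probes were well above background on at most 1 array each, so no difference was given for them.

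The RNA came from liver CD8+ T cells of female mice on a C57BL/6 background, 13 to 14 weeks old, in 2 groups of 3 samples. Both groups carried the dnTGFβRII transgene, which encodes a dominant negative TGF-beta receptor II, the only change named for the TG group, while the TGC3 group was also CXCR3-/-. Neither group stood for a wild-type liver, and the labels name neither the promoter of the transgene nor the deleted part of Cxcr3. The study set out to learn what CXCR3 does in the activation and proliferation of these cells. Nothing beyond the sample codes says that samples came from separate mice, so a p-value here is about the spread among samples, which may be technical. In sorted bulk RNA, fewer cells of a type and less RNA per cell cannot be told apart.

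Values below are log2 signals relative to the 75th percentile of their own array ("scaled log2 value"), and a difference is TGC3 minus TG with its standard error from limma, n = 3 arrays a group. Adjusted p is Benjamini-Hochberg over 16389 genes, and rose or fell is written only for an adjusted p under 0.05. Between 58.9% and 63.8% of all probes were well above background on an array. Cxcr3 itself had scaled log2 values of -4.64 to -4.21 in TGC3 and 6.85 to 6.94 in TG. Each genotype was hybridised on a slide of its own, and the effects of slide and genotype cannot be told apart. Of all genes, 2721 rose and 1552 fell. With arrays centred on their median instead, 1801 rose and 4786 fell, and the median of all genes moved from -0.01 to -0.18. Markers that define the sort were high in all 6 samples, with Cd8a at 7.27 to 7.65 and Cd8b1 at 8.02 to 8.27. Array TGC3 2 stood apart from TGC3 1 and TGC3 3 in the mitotic kinesins, and differences are therefore also given without it.

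All 11 measured mitotic kinesins rose in TGC3, by 1.66-fold (Kif23) to 3.95-fold (Kif14), and none of them fell. The lists were drawn up by known role, but with earlier results of these data known. Kif2a, which also acts at spindle poles, was put with the other kinesins and did not pass the test. In the same fit 26.1% of all genes passed the test, with 16.6% higher and 9.47% lower. The median difference of the 11 genes was 1.38 (2.60-fold), against -0.01 over all genes, and 9 of the 11 rose at least 2-fold, as did 3.12% of all genes. The lowest TGC3 value lay above the highest TG value for all 11, as it did for 24.3% of all genes. None of the 10 measured transport kinesins rose and 1 fell, Kif5a, with a median of -0.01. Of the 7 other kinesins, 2 rose and none fell, with a median of 0.15. With arrays centred on their median, 0 of these 7 rose and 2 fell, with a median of -0.03.

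**Figure D1:**
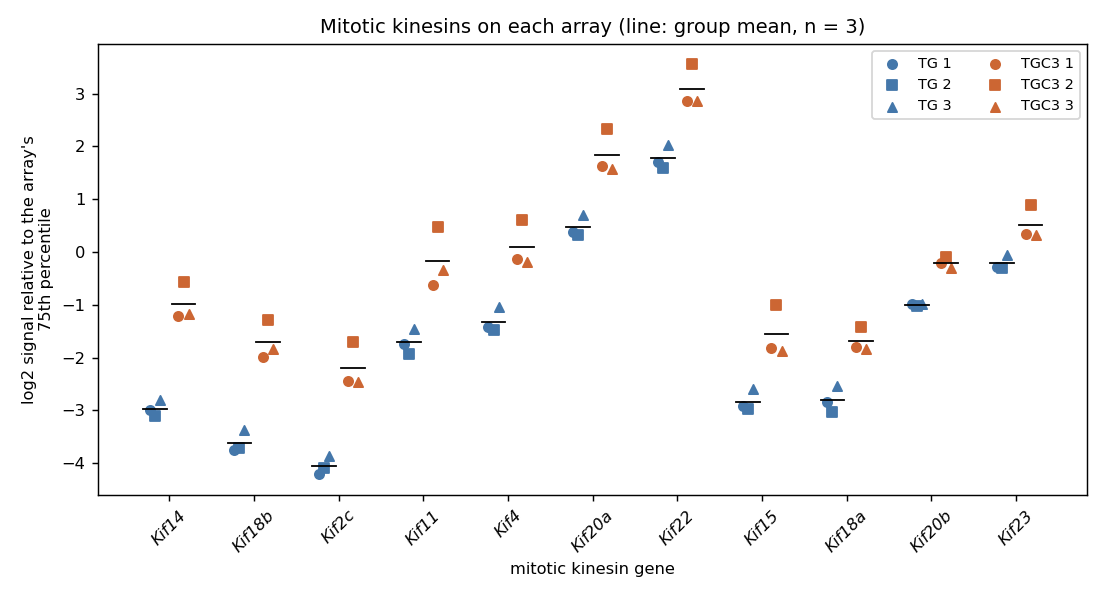
Scaled log2 signal of the 11 measured mitotic kinesins on each of the 6 arrays (blue TG, orange TGC3; the symbol gives the replicate; the line is the mean of 3 arrays). The 3 orange points lie above the 3 blue points for each gene, and the orange square, TGC3 2, is the highest of 6 for all 11 genes; levels of different genes are not comparable, since each is read by its own probe.

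The motors that push the spindle poles apart and keep the spindle bipolar are Kif11, which slides antiparallel microtubules, and Kif15, which assists it. Kif11 (NM_010615, mm9, chr19:37495755-37495814, plus strand) was at -0.62, 0.47 and -0.35 on TGC3 1 to TGC3 3 and at -1.74, -1.94 and -1.45 on TG 1 to TG 3. Kif15 (NM_010620, chr9:122927298-122927357, plus strand) was at -1.81, -1.004 and -1.87 in TGC3 and at -2.92, -2.98 and -2.60 in TG. Groups did not overlap for either gene, and TGC3 2 was the highest array for both. Kif11 rose by 1.54 ± 0.29 (2.91-fold, adjusted p = 0.0147) and Kif15 by 1.27 ± 0.25 (2.41-fold, adjusted p = 0.0164). Both calls depended on a control array: without TG 2 the adjusted p was 0.0516 for Kif11 and 0.0565 for Kif15, and without TG 1 it was 0.0540 for Kif15.

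The chromokinesins Kif22 and Kif4 bind chromosome arms, and Kif4 also acts with Prc1 on the microtubules between the separating chromosomes. Kif22 (NM_145588, chr7:134171293-134171352, minus strand) was at 2.86, 3.55 and 2.85 in TGC3 and at 1.70, 1.60 and 2.02 in TG. Kif4 (NM_008446, chrX:97922126-97922185, plus strand) was at -0.14, 0.61 and -0.18 in TGC3 and at -1.43, -1.48 and -1.04 in TG. In both genes the TGC3 2 value exceeded those of TGC3 1 and TGC3 3, which were close to each other. Kif22 rose by 1.31 ± 0.22 (2.49-fold, adjusted p = 0.0103) and Kif4 by 1.41 ± 0.24 (2.67-fold, adjusted p = 0.0109).

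Kif2c removes tubulin from microtubule ends at the kinetochores, Kif18a aligns chromosomes from the plus ends of kinetochore microtubules, and Kif18b acts at the plus ends of astral microtubules. Kif2c (NM_134471, chr4:116832775-116832834, minus strand) was at -2.44, -1.71 and -2.46 in TGC3 and at -4.21, -4.10 and -3.87 in TG. Kif18b (NM_197959, chr11:102767246-102767305, minus strand) was at -1.99, -1.29 and -1.84 in TGC3 and at -3.75, -3.71 and -3.37 in TG. Kif18a (NM_139303, chr2:109181416-109181475, plus strand) was at -1.79, -1.41 and -1.84 in TGC3 and at -2.83, -3.03 and -2.54 in TG. All 3 genes had separate groups, and the space between the lowest TGC3 and the highest TG value was 1.41 for Kif2c, 1.38 for Kif18b and 0.70 for Kif18a. Kif18b rose by 1.90 ± 0.20 (3.74-fold, adjusted p = 0.00317), Kif2c by 1.86 ± 0.22 (3.62-fold, adjusted p = 0.00403) and Kif18a by 1.12 ± 0.17 (2.17-fold, adjusted p = 0.00750). Kif2b, a relative of Kif2c that also acts in mitosis, was well above background on 0 arrays.

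The motors of the midzone and of cytokinesis are Kif14, which works with citron kinase, Kif20a, which brings the Aurora B complex to the midzone, Kif23, which forms centralspindlin with Racgap1, and Kif20b, which acts late in cytokinesis. Kif14 (NM_001081258, chr1:138426006-138426065, plus strand) was at -1.20, -0.58 and -1.17 in TGC3 and at -2.98, -3.10 and -2.81 in TG. Kif20a was at 1.64, 2.32 and 1.57 in TGC3 and at 0.38, 0.32 and 0.69 in TG. For both, TGC3 was higher on every array, and for Kif14 the space between the groups was 1.61. Kif14 rose by 1.98 ± 0.19 (3.95-fold, adjusted p = 0.00231) and Kif20a by 1.38 ± 0.22 (2.60-fold, adjusted p = 0.00910). The second Kif14 probe, A_51_P518790, was well above background on no array.

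The smallest rises were those of Kif20b and Kif23. Kif20b (NM_183046) was at -0.21, -0.10 and -0.30 in TGC3 and at -0.98, -1.02 and -0.99 in TG. Kif23 (NM_024245) was at 0.35, 0.89 and 0.32 in TGC3 and at -0.29, -0.31 and -0.05 in TG. The arrays of a group lay closest together for Kif20b, with an SD of 0.10 in TGC3 and 0.02 in TG. Kif20b rose by 0.80 ± 0.07 (1.74-fold, adjusted p = 0.00211) and Kif23 by 0.73 ± 0.17 (1.66-fold, adjusted p = 0.0274). The Kif23 call was lost without TG 1 (adjusted p = 0.0828), without TG 2 (adjusted p = 0.0848) and with no filter on dim probes (adjusted p = 0.0646).

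TGC3 2 was the highest of the 6 arrays for 11 of 11 mitotic kinesins, TG 3 the highest of the TG arrays for 10, and TG 2 the lowest for 9. The median SD over the 11 genes was 0.40 in TGC3 and 0.20 in TG. Without TGC3 2 the differences ranged from 0.55 (Kif23) to 1.78 (Kif14), and their median was 1.14. For the transport kinesins the same array ran the other way, being the lowest of 6 for 6 of 10 genes. How often TGC3 2 was the highest or lowest array over all genes was not counted. Some markers of other cell types moved with the mitotic kinesins and others did not. Beside the marker counts below, 16.6% of all genes rose and 9.47% fell. For neutrophil markers the summed level of the 9 on the array, in multiples of the array's 75th percentile, was 1.67 to 8.19 in TGC3 and 0.133 to 0.209 in TG. Of these 9, 4 were well above background on at least 3 arrays, 2 rose, and Elane and Cxcr2 were above background on none. S100a8 and the B cell marker Ms4a1 were above background on 3 arrays each, S100a9 and Retnlg on 4. These genes passed the filter through TGC3, where they were high, so counts of rises that include them are partly set by the filter. S100a9, a neutrophil marker named after its values were seen, was at 0.23, 2.59 and 1.20 on TGC3 1 to TGC3 3, so it too was highest on TGC3 2. Of 5 tested B cell markers 3 rose and 1 fell, although their summed level, most of it Cd79b, was 6.10 to 6.56 in TGC3 and 6.23 to 7.53 in TG, and Pax5 and Blk were above background on no array. Ms4a1, the B cell gene for CD20, was at -4.30, -2.60 and -4.14 on TGC3 1 to TGC3 3 and was above background on no TG array. Of 6 tested macrophage and monocyte markers 3 rose and none fell, with a summed level, most of it Ly6c2, of 228 to 285 in TGC3 and 254 to 269 in TG, and with Cd163, C1qa and C1qc above background on none. Lyz2, a lysozyme gene of myeloid cells, was at -1.62, 1.16 and -0.82 in TGC3 and at -2.64, -4.56 and -3.75 in TG. Both Ms4a1 and Lyz2, named after their values were seen, were highest on TGC3 2. Other members of these lists were not. Among the TGC3 arrays Cd79a (-4.58) and Cd79b (2.35) were lowest on TGC3 2, and Marco was highest on TGC3 1 (-2.21). Cd22 was lower in TGC3 (-1.41 to -0.53) than in TG (-0.21 to -0.03). Of 4 tested dendritic cell markers 2 rose and none fell (summed level 14.3 to 23.7 in TGC3 and 18.4 to 20.9 in TG), with Clec9a, Siglech and Cd209a above background on none. Of 8 tested NK cell markers none rose and 2 fell, with a median of -0.41. Of the tested CD4 T cell, hepatocyte, endothelial and stellate, and erythroid markers (3, 1, 4 and 1), 0, 1, 2 and 0 rose and none fell. Of the 10 CD8 T cell markers none rose and 3 fell, with a summed level of 961 to 1054 in TGC3 and 1051 to 1167 in TG. The part of these other cells in the kinesin differences was not tested.

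Several kinesins had more than 1 usable probe, which shows whether a difference was that of a single oligonucleotide. Some probes cross exon junctions and so read spliced transcripts. Those of Kif20b, Kif23 and Kif15 are printed because these genes had the smallest or least stable rises, with the mm9 interval that each probe's 60 bases span in the genome, introns included. The letters are those of the array design, in the sense of the transcript and with nothing in capitals.
Kif20b probe A_51_P205242, chr19:35017012-35022112, plus strand: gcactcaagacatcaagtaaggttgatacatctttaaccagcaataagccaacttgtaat
Kif20b probe A_52_P149336, chr19:35049058-35050039, plus strand: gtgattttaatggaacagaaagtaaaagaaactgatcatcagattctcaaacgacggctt
Kif23 probe A_52_P27602, chr9:61767733-61768853, minus strand: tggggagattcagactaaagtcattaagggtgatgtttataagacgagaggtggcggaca
Kif23 probe A_51_P324287, chr9:61767492-61767732, minus strand: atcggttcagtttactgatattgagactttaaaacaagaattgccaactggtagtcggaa
Kif15 probe A_51_P127412, chr9:122880853-122884774, plus strand: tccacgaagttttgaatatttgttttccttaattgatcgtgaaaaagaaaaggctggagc

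Of 18 usable mitotic kinesin probes, 16 were well above background on all 6 arrays. In a fit over all 25103 usable probes these 16 rose, where 22.1% of all probes passed, 13.7% higher and 8.37% lower. Of the mitotic genes, 4 had several such probes (Kif4, Kif20a, Kif20b and Kif23), and each probe gave the same call. The Kif20b probes A_51_P205242 and A_52_P149336, printed above, rose by 0.80 ± 0.07 and 0.79 ± 0.09, and the third, A_52_P115253, by 0.99 ± 0.12. The Kif23 probe A_51_P324287 rose by 0.92 ± 0.18, against 0.73 ± 0.17 for A_52_P27602. The probe pairs of Kif20a and Kif4 share 33 and 20 bases, so they are not independent readings of their transcripts. The second probes of Kif11 (A_52_P646059) and Kif15 (A_51_P127412) were each well above background on 3 TGC3 arrays and 1 TG array, so they entered through the group in which they were bright and bear on no agreement between probes. With dim TG values raised to the lowest signal above background on their array, they were 3.59-fold and 3.69-fold higher in TGC3. These are not lower bounds, since a signal not called above background can exceed that lowest signal.

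**Figure D2:**
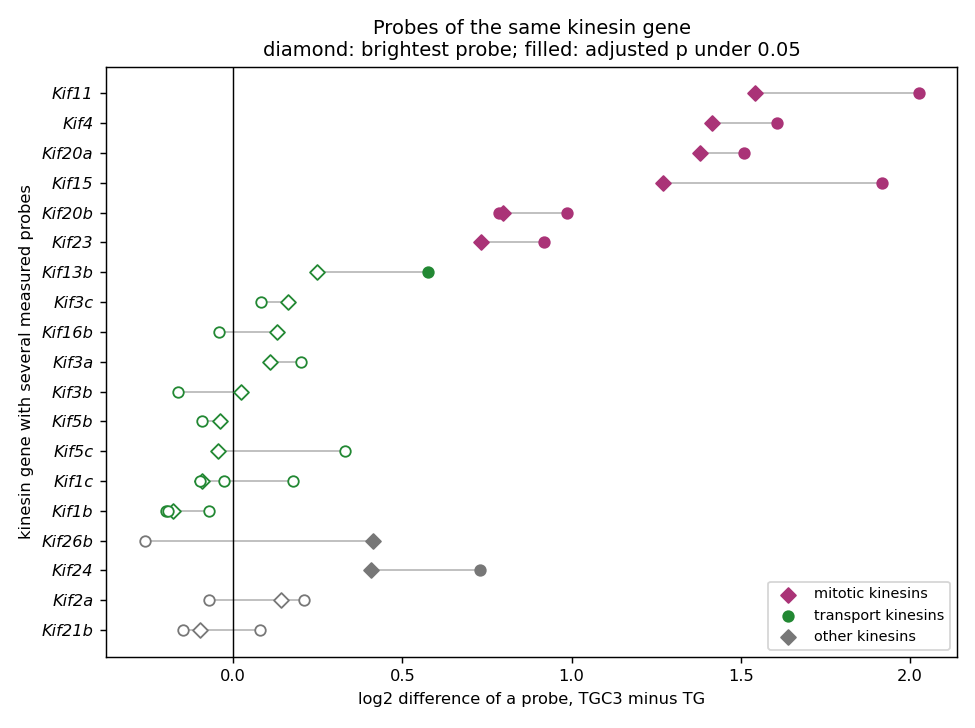
Log2 difference, TGC3 minus TG, of each usable probe of the 19 kinesin genes that had several (diamond: the brightest probe, which read the gene; filled: adjusted p under 0.05 over 25103 probes; colour: mitotic, transport or other). The mitotic probes lie at or right of 0.73, with the right-hand points of Kif11 and Kif15 resting on probes above background on 1 TG array each, whereas the transport probes lie between -0.20 and 0.58 with 1 filled point, a second probe of Kif13b.

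Transport kinesins are the comparison group within the family. Kif5a, Kif5b and Kif5c are heavy chains of conventional kinesin, of which Kif5b is made in most tissues and Kif5a mainly in neurons. Kif5a (NM_001039000, chr10:126662797-126662856, minus strand) was at -2.50, -2.83 and -2.63 in TGC3 and at -1.91, -2.11 and -1.81 in TG. Its groups did not overlap, and it fell by 0.71 ± 0.12 on the log2 scale, a level 1.64-fold higher in TG (adjusted p = 0.0100). This rests on a single probe, since the second Kif5a probe, A_52_P93042, was well above background on no array. Kif5b was at 4.66, 4.62 and 4.72 in TGC3 and at 4.69, 4.67 and 4.75 in TG. The Kif5b groups overlapped, with a difference of -0.04 ± 0.06 and a 95% interval of -0.18 to 0.11 (adjusted p = 0.672).

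Kif1b and Kif1c carry mitochondria and vesicles, and Kif13b carries membrane cargo. Kif1b (NM_207682, chr4:148551200-148551259, minus strand) was at 1.82, 1.63 and 1.86 in TGC3 and at 1.99, 1.94 and 1.93 in TG. Kif1c (NM_153103, chr11:70543754-70543813, plus strand) was at 1.71, 1.59 and 1.70 in TGC3 and at 1.72, 1.75 and 1.80 in TG. Neither passed the test, although every TGC3 value lay below every TG value in both. Kif1b differed by -0.18 ± 0.08 (95% interval -0.37 to 0.01, adjusted p = 0.144) and Kif1c by -0.09 ± 0.06 (-0.25 to 0.06, adjusted p = 0.333). Kif13b (NM_001081177) was at 0.48, 0.34 and 0.74 in TGC3 and at 0.31, 0.39 and 0.12 in TG. Its groups overlapped and its difference was 0.25 ± 0.13 (adjusted p = 0.196). A dimmer Kif13b probe, A_51_P364321, rose by 0.58 ± 0.13 (adjusted p = 0.0278 over probes), and with the mean of its probes the gene rose by 0.41 (adjusted p = 0.0182).

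The other 5 measured transport kinesins were Kif3a, Kif3b and Kif3c, the kinesin-2 motors of cilia and vesicles, Kif5c, and Kif16b, an endosome motor. Their differences ran from -0.04 (Kif5c) to 0.16 (Kif3c), and none passed the test. The highest upper end of a 95% interval among all 10 transport kinesins was 0.67, that of Kif3a, so a rise of 2-fold lay outside the interval of every measured member. Kif3a was at -2.14, -2.93 and -2.04 in TGC3 and at -2.45, -2.53 and -2.45 in TG, with TGC3 2 the lowest of 6. Its difference was 0.11 ± 0.23, and without TGC3 2 it rose by 0.39 (adjusted p = 0.0202). Over the 10 genes the groups did not overlap for 4, of which 1 was higher and 3 lower in TGC3, against 24.3% and 22.4% of all genes. Of 23 usable transport probes, 1 rose and 1 fell, with a median of -0.04, where 13.7% of all probes rose and 8.37% fell.

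**Figure D3:**
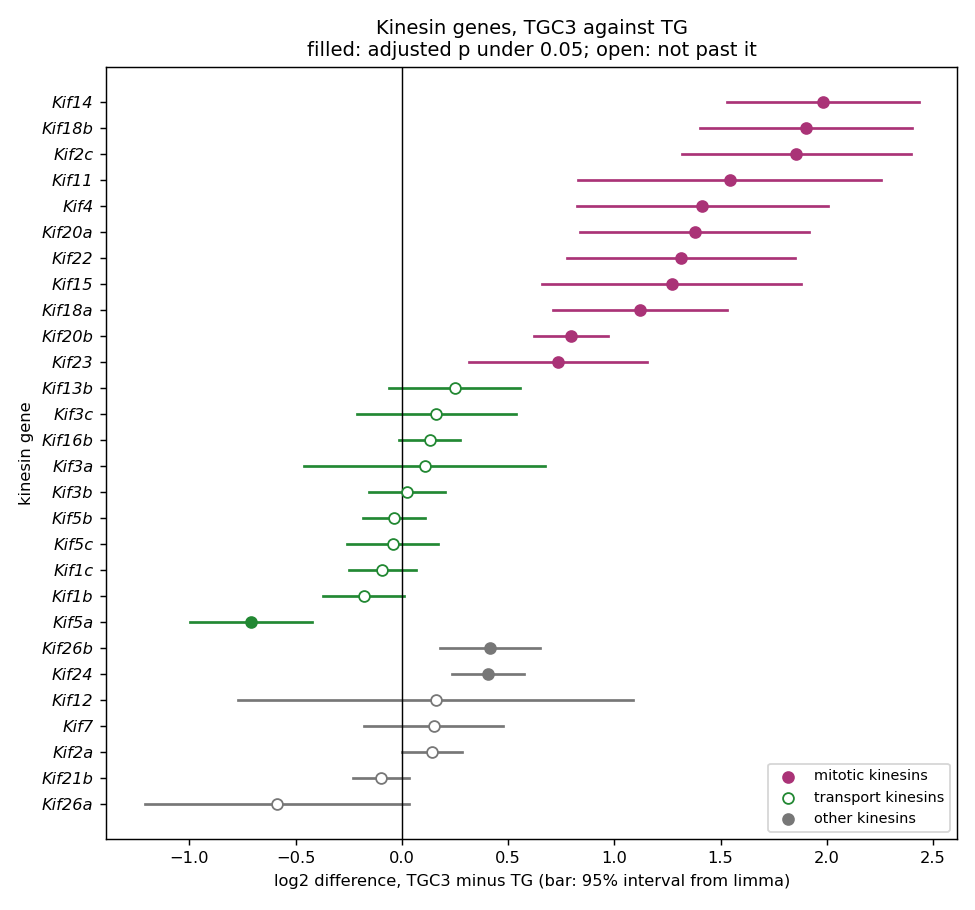
Log2 difference, TGC3 minus TG, of the 28 measured kinesin genes with 95% intervals from limma (n = 3 arrays a group; filled: adjusted p under 0.05 over 16389 genes; open: not past it). The 11 mitotic kinesins lie between 0.73 and 1.98, the 10 transport kinesins between -0.71 and 0.25, and the 7 other kinesins between -0.59 and 0.41.

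Among the other kinesins, Kif24, which trims microtubules at the centriole and restrains cilium formation, was at -0.60, -0.52 and -0.71 in TGC3 and at -0.99, -1.06 and -1.0007 in TG. Its groups did not overlap, and it rose by 0.41 ± 0.07 (1.33-fold, adjusted p = 0.0112). Its second probe, A_52_P220858, rose by 0.73 ± 0.06. Kif26b, an atypical kinesin, was at -2.96, -3.09 and -2.88 in TGC3 and at -3.55, -3.35 and -3.28 in TG. It rose by 0.41 ± 0.10 (1.33-fold, adjusted p = 0.0275), but its second probe, A_51_P179258, gave -0.26 ± 1.16 and was above background on 3 arrays. Of 17 alternative processings, Kif24 passed in 14 and Kif26b in 5. Among those that ended the Kif26b call were leaving out TGC3 1, TGC3 3, TG 1 or TG 2 and averaging its probes, where the difference was 0.08.

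Kif21b, a motor known in T cells that limits microtubule growth, was at 5.96, 5.92 and 5.92 in TGC3 and at 6.06, 6.04 and 6.00 in TG. All TGC3 values lay below all TG values, by a difference of -0.10 ± 0.05 that did not pass the test (95% interval -0.23 to 0.03, adjusted p = 0.230). Kif2a, which depolymerises microtubules in neurons and at spindle poles, was at 1.53, 1.60 and 1.59 in TGC3 and at 1.43, 1.48 and 1.39 in TG. It differed by 0.14 ± 0.06 (adjusted p = 0.126), with separate groups. The remaining members were Kif12 (0.16 ± 0.38), Kif7 (0.15 ± 0.13), a regulator of Hedgehog signalling in cilia, and Kif26a (-0.59 ± 0.26), and none of them passed. Without TGC3 2 Kif7 rose by 0.30 (adjusted p = 0.0364). Of 13 usable probes of the other kinesins, 3 rose and none fell, where 13.7% of all probes rose and 8.37% fell.

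Promoters of many genes made in G2 and M phase carry the cell cycle genes homology region (CHR), a short element to which MuvB complexes (DREAM, and B-MYB with MuvB) bind, often downstream of CCAAT boxes to which NF-Y binds. RefSeq promoter windows (GRCm38.p6, 250 bases before to 50 after an annotated start) were matched by symbol for 11 of 12 mitotic, 10 of 13 transport and 10 of 11 other kinesins, several with more than 1 start. The windows were searched on both strands for TTTGAA, for the variant TTCGAA and for CCAAT. The 7 mitotic promoters with a match close to the start are printed from 120 bases before to 30 after it, 5′ to 3′ on the strand of the gene, with TTTGAA and TTCGAA in capitals (TTCAAA is TTTGAA on the other strand) and CCAAT left in lower case. Below them stand Kif24, with a match to the variant TTCGAA, and Kif1c, a transport kinesin, with no match.
Kif11, chr19:37376262-37376411, plus strand: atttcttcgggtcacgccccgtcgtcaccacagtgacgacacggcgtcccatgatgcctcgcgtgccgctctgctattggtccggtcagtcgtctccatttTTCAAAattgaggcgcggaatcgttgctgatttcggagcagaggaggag
Kif15, chr9:122950961-122951110, plus strand: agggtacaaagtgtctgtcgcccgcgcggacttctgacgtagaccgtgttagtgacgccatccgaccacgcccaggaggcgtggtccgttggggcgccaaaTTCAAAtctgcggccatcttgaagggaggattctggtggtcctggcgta
Kif22, chr7:127042391-127042540, minus strand: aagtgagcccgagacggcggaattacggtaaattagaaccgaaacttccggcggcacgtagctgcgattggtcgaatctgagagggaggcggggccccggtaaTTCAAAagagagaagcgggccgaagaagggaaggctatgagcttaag
Kif23, chr9:61946770-61946919, minus strand: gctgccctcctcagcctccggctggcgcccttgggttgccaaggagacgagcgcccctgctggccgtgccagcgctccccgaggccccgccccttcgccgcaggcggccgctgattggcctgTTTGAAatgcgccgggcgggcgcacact
Kif18b, chr11:102925095-102925244, minus strand: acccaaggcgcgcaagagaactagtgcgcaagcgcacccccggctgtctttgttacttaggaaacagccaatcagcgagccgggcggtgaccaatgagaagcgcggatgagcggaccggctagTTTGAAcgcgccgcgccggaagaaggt
Kif20b, chr19:34922238-34922387, plus strand: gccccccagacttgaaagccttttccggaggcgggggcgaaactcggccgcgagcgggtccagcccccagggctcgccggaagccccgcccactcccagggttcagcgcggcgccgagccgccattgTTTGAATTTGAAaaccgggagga
Kif4, chrX:100625945-100626094, plus strand: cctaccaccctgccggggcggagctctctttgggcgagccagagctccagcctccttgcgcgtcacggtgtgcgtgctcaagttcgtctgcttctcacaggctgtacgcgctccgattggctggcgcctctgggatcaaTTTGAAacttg
Kif24, chr4:41464819-41464968, minus strand: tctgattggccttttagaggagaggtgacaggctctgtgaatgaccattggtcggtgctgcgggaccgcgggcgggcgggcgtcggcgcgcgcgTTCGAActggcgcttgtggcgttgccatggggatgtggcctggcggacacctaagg
Kif1c, chr11:70700428-70700577, plus strand: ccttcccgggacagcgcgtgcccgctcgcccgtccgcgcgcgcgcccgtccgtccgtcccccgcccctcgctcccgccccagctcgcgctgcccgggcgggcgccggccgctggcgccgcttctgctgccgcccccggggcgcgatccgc

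TTTGAA was found in 9 of 11 mitotic windows (81.8%), 1 of 12 transport windows (8.33%) and 2 of 12 windows of the other kinesins (16.7%), against 17.9% of all 32851 windows. The first base of the match, counted with the annotated start at 0, lay at -19 in Kif11, -19 in Kif15, -17 in Kif22, 2 in Kif23, 3 in Kif18b and 19 in Kif4. Kif20b had adjoining matches at 7 and 13. A match within 20 bases of the start, a distance chosen after these positions were seen, was present for 7 of 11 mitotic, 0 of 10 transport and 1 of 10 other genes (Kif26b, at -9), and in 2.22% of all windows. The other mitotic matches were at -103 in Kif2c and -228 in Kif14, Kif15 and Kif22 had a further match each, and Kif18a and Kif2b had none. The variant TTCGAA, in 1.56% of all windows, was found among kinesins in Kif24 alone, at -26. CCAAT was found in 63.6% of mitotic, 33.3% of transport and 33.3% of other windows, against 37.4% of all. These matches describe letters in a window and do not show binding. Genes with a close match (Kif11, Kif4, Kif20b) and without one (Kif14, Kif2c, Kif18a) were both among those that rose.

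**Figure D4:**
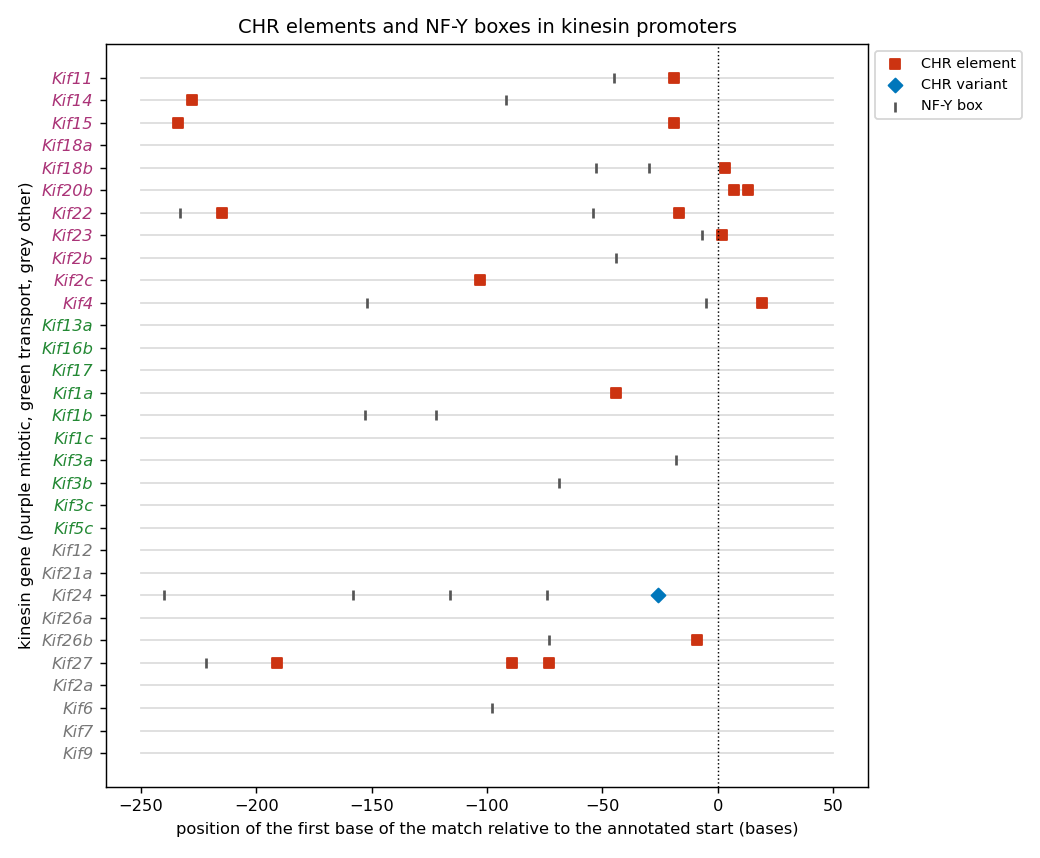
Position of matches to TTTGAA (red squares, labelled CHR element), TTCGAA (blue diamond, CHR variant) and CCAAT (grey bars, NF-Y box) in promoter windows of 31 kinesin genes. Positions are in bases from the annotated start at 0 (1 window a gene, both strands, purple mitotic, green transport, grey other). The labels name letter matches and do not show binding. Red squares cluster between -19 and 19 in 7 mitotic genes, and the only red square of a transport kinesin is that of Kif1a.

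The kinesin system around these motors was read from lists of partners. Kinesins with names outside the Kif series include Cenpe, the kinetochore motor, which was at 2.11, 2.80 and 2.13 in TGC3 and at 1.12, 1.06 and 1.30 in TG. Cenpe rose by 1.19 ± 0.20 (adjusted p = 0.0105), with TGC3 2 again the highest array. Kifc1, a minus-end motor that gathers spindle poles, differed by 0.48 ± 0.20 (adjusted p = 0.119), and its near-identical relative Kifc5b may share its signal. Kifc2 and Kifc3 fell by 0.33 ± 0.09 and by 0.39 ± 0.10 (adjusted p = 0.0360 and 0.0389). Of 5 measured genes of this list, 1 thus rose and 2 fell, against 16.6% and 9.47% of all genes.

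Of 25 measured partners of the mitotic kinesins, 20 rose and none fell, with a median of 1.28, where 16.6% of all genes rose and 9.47% fell. Hmmr, a spindle protein that binds Tpx2, was at 0.35, 1.14 and 0.34 in TGC3 and at -1.40, -1.48 and -1.21 in TG, and rose by 1.97 ± 0.23 (adjusted p = 0.00386). The 5 partners that did not pass were Incenp, Racgap1, Mapre1, Mapre3 and Mad1l1. Among them Racgap1, which binds Kif23, differed by 0.10 ± 0.16, and Incenp, which binds Aurora B, by 0.39 ± 0.23. Of 14 genes of a proliferation reference list, 12 rose and none fell, with a median of 1.13, beside the same shares of all genes.

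On the transport side, 3 of 21 measured genes listed as kinesin light chains and adaptors rose and 2 fell. Their median was -0.06, and the counts were near the shares of all genes (16.6% higher, 9.47% lower). The genes that rose include Kbtbd2 (0.36 ± 0.08), whose place among kinesin adaptors is uncertain. Hap1, which links kinesin-1 and dynactin to vesicles, was at 2.27, 2.49 and 2.50 in TGC3 and at 1.79, 1.72 and 1.53 in TG, and rose by 0.75 ± 0.10 (adjusted p = 0.00568). Klc2, a kinesin-1 light chain, was at -3.66, -3.76 and -4.04 in TGC3 and at -3.03, -3.22 and -3.25 in TG, and fell by 0.65 ± 0.12 (adjusted p = 0.0137). Kidins220, a membrane scaffold that binds kinesin-1, fell by 0.38 ± 0.07 (adjusted p = 0.0128). Of 21 measured genes of dynein and dynactin, the motor that runs to the minus end, none rose and 3 fell, with a median of -0.08, where 16.6% of all genes rose and 9.47% fell. These were Actr1b (-0.55 ± 0.06), Nde1 (-0.36 ± 0.08) and Dync1li2 (-0.28 ± 0.06).

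**Figure D5:**
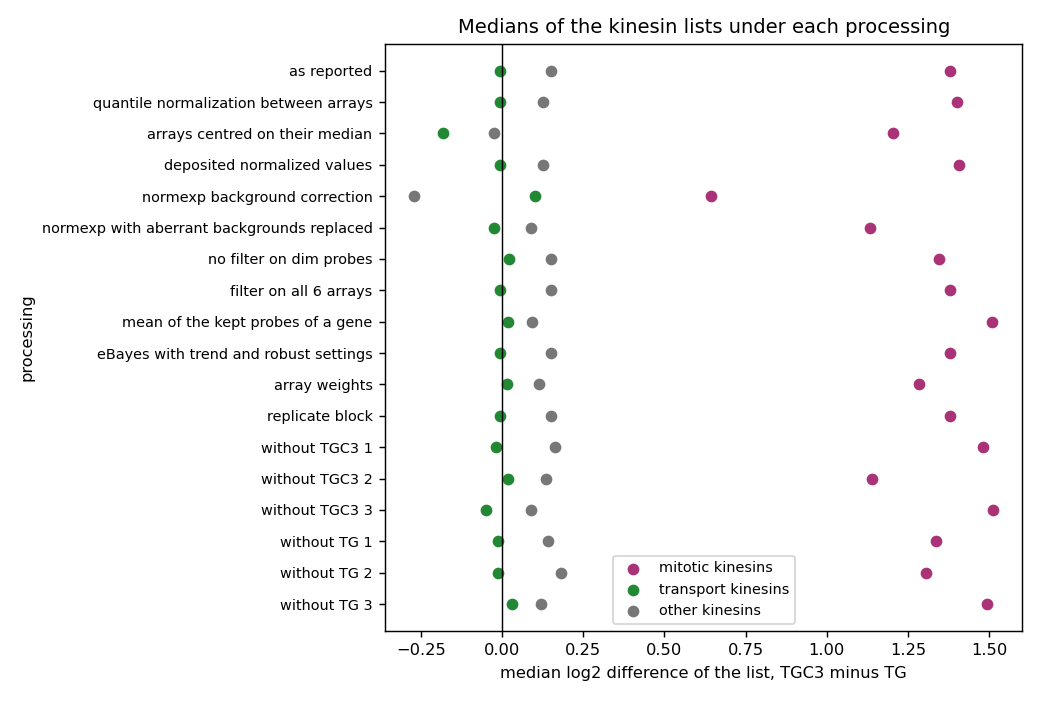
Median log2 difference of the mitotic (purple), transport (green) and other (grey) kinesins as reported and under each of 17 alternative processings. The mitotic median stays right of the other lists in every row, from 0.64 with unrepaired normexp to 1.51, and the transport median lies between -0.18 and 0.10.

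The mitotic rises ended under 1 processing as a whole: with normexp on the background signals as given, 0 of 11 passed in limma and the median was 0.64, where 505 genes had an unadjusted p under 0.05 against 6564 here. With 7 aberrant spot backgrounds of TG 3 replaced in that correction, 11 of 11 rose.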

How the data were processed

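One-colour (Cy3) Agilent arrays read total RNA of 6 samples. Per the file headers, the authors read them with Feature Extraction 10.7.3.1 (10.7.1.1 per the submitters' processing notes), where the processed signal is a background-subtracted intensity with no normalization between arrays. Probe positions are those of mm9. The authors' deposited matrix holds log2 values that look quantile normalized (every column's median was 5.57, and its values correlated with the log2 processed signal at 0.999 to 1.00), and it was used as an alternative.

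Spots of a probe were averaged, 0 spots were saturated, and the log2 processed signal was scaled to each array's 75th percentile. Groups were compared with limma 3.58.1 under R 4.3.3 (tables read with data.table, version 1.17.8), using lmFit and eBayes (two-sided, adjusted p under 0.05). The procedure was tested on simulated data with independent noise and no slide effect, so that test does not cover differences between slides. Kinesin probes were named from RefSeq by accession (66) or symbol (14). Figures were drawn with Python 3.11.15, matplotlib 3.10.9 and numpy 2.4.6. Depth is set by the call of well above background, and precision is limited by having 3 arrays a group.

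The members, lists and tests were chosen with earlier results of these data known. Per-array values are given for every measured mitotic kinesin, every other member called, and the uncalled transport and other members with the highest mean signal (up to 6). Outside the family, Cxcr3, Cd8a, Cd8b1, Cenpe, Kifc1 and up to 3 called members of a list were named. Genes named beyond this rule were chosen after their values were seen. Alternatives for the scale were quantile normalization, median centring, the deposited values and normexp (offset 50), either as given or after spot backgrounds above 10 times an array's median were set to that median. Others kept all probes, kept those above background on 6 arrays, averaged a gene's probes, set trend and robust in eBayes, weighted the arrays, took the replicate number as a block, or left out 1 array at a time.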

Additional observations from a re-analysis of the deposited data

How the results depend on the processing

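Of the mitotic kinesins, 108 of 121 gene results under the 11 alternatives other than leaving out an array kept their direction and side of the threshold, and all 121 were above 0. The count of mitotic kinesins that rose was 0, and their median difference 0.64, with unrepaired normexp, where all genes gave 0 higher and 1 lower, and the cause was not tested beyond the 7 backgrounds whose replacement gave back 11. The count of transport kinesins that fell was 2 with median centring and 0 with unrepaired normexp, and their median with median centring was -0.18, equal to the shift of all genes there. The count of transport kinesins that rose was 1 with the mean of a gene's probes (Kif13b). The other kinesins, of which 2 rose and 0 fell, gave 0 and 2 with median centring. Kif26b turned to -0.49 with unrepaired normexp. Leaving out each array gave 8 to 11 mitotic kinesins that rose (median 1.14 to 1.51), 0 to 1 transport kinesins that rose, 1 that fell and a transport median of -0.05 to 0.03. Over all genes, the count of higher genes ran from 0 to 3255 against 2721, and of lower genes from 1 to 4786 against 1552. Across genes, deviations from the group mean were not positively correlated between samples of the same replicate number (correlations of -0.003, -0.08 and -0.10). Such deviations cancel out within a group, which ties the correlations to each other, so a small shared effect could be missed. Whether the numbers pair the samples was therefore not decided. With the replicate number as a block, 10 mitotic kinesins rose, and Kif23 (adjusted p = 0.0689), Kif24 (0.0510) and Kif26b (0.0611) did not pass. Slide as a block could not be fitted, since each slide held 1 group. Dim probes limit the family to 28 of 36 genes.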
